A study of Macaca mulatta with 9 samples.

Results

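The mitochondrial ribosomal protein genes are the nuclear genes whose symbols begin with MRPL, for the large subunit, or MRPS, for the small subunit. They were taken from the deposited table by symbol alone, which gave 78 of the table's 24371 genes, 49 named MRPL and 29 named MRPS. The study sequenced RNA from whole blood of 9 rhesus macaques (Macaca mulatta), each labelled wild type (WT), which had been randomly assigned to 3 groups of 3. One group was injected with PBS, the vehicle, and its libraries carry the name Old in the labels. The second received EVs FBMSC and the third EVs ABPC, extracellular vesicles (EVs) that the series title attributes to antler blastema progenitor cells. Dose, duration and age are not in the labels, and the name FBMSC is used here as the labels write it. The 3 libraries of a group are separate animals. They are numbered here as in the labels.

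Mitochondria keep a ribosome of their own, which translates the few messages of the mitochondrial genome, all of them for subunits of the respiratory chain and ATP synthase. Its RNA is made in the organelle, but every one of its proteins is encoded in the nucleus, made in the cytosol and imported. Some of these proteins descend from bacterial ribosomal proteins, and others were added during mitochondrial evolution. Mature red cells have lost their mitochondria, while reticulocytes are still clearing theirs, and leukocytes and platelets carry them. By role, the 78 genes comprised 30 large subunit proteins with a bacterial homologue, 21 large subunit proteins specific to mitochondria, 16 small subunit proteins with a bacterial homologue and 10 small subunit proteins specific to mitochondria. The remaining gene, MRPS36, was first named as a ribosomal protein and is now assigned to the alpha-ketoglutarate dehydrogenase complex. MRPS30 and MRPS18A keep small subunit names but belong to the large subunit, where they were counted.

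Values are given on 3 scales. The first is the deposited value, turned back from log2 into a value that is adjusted for gene length and has a fixed total per library. It has the form of a TPM (a transcript's share of its library) and is given in that unit. The second divides each library's values by 1 factor, the median ratio of its genes to their geometric mean over all 9 libraries, and is called the scaled value. The third is the number of reads per gene, recovered from the steps between low values. The 9 libraries held 11733640 to 14468919 recovered reads on genes, and the mitochondrial ribosomal protein genes took a small part of them. They had 2670, 4308 and 5487 reads in PBS 1, 2 and 3. The corresponding numbers were 4972, 7431 and 6501 reads in the FBMSC EV libraries, and 8484, 8041 and 10210 reads in the ABPC EV libraries. The median gene had 27 to 54.5 reads in the PBS libraries, 50 to 85.5 in the FBMSC EV libraries and 85.5 to 108 in the ABPC EV libraries. In PBS 1, 11 of the 78 genes had under 10 reads, against 0 or 1 gene in each other library, so PBS 1 gave the least precise values. Hemoglobin genes held 88.2% to 92.7% of the summed deposited values in the PBS libraries, 82.3% to 87.6% in the FBMSC EV libraries and 70.9% to 82.4% in the ABPC EV libraries. Because deposited values share a fixed total, the part left for other genes moved with the groups. Genes outside the red cell list held 9.71% ± 2.48, 15.3% ± 2.92 and 23.3% ± 5.88 (SD, n = 3) in the PBS, FBMSC EV and ABPC EV groups. In a bulk library, fewer cells of a type and less RNA per cell cannot be told apart.

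As a group, these genes took a larger share of the deposited values in the ABPC EV animals than in the PBS animals, and a slightly smaller one once the libraries were scaled to each other. The deposited values of the 78 genes summed to 101.6, 155.3 and 245.2 TPM in the PBS libraries, to 235.5, 356.5 and 288.9 in the FBMSC EV libraries and to 394.0, 570.4 and 628.3 in the ABPC EV libraries. All 3 ABPC EV libraries lay above all others, and FBMSC EV 1 lay below PBS 3. After scaling, the sums were 307.5, 330.4 and 319.7 in the PBS libraries, 239.0, 295.5 and 301.7 in the FBMSC EV libraries and 259.0, 263.3 and 249.6 in the ABPC EV libraries. On this scale the PBS libraries were the 3 highest, and the FBMSC EV libraries spanned the ABPC EV range. The scaling factors ran from 0.330 to 0.767 in the PBS group, 0.957 to 1.21 in the FBMSC EV group and 1.52 to 2.52 in the ABPC EV group, so the scale sets the direction. A further scale, the sum per 10000 of the values outside the red cell list, gave 14.8, 14.1 and 21.8 in the PBS libraries, 13.8, 21.1 and 24.2 in the FBMSC EV libraries and 23.2, 19.9 and 25.8 in the ABPC EV libraries. There the PBS and ABPC EV groups overlapped, because PBS 3 exceeded ABPC EV 2. The part that the hemoglobin share plays in these differences was not tested.

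**Figure D1:**
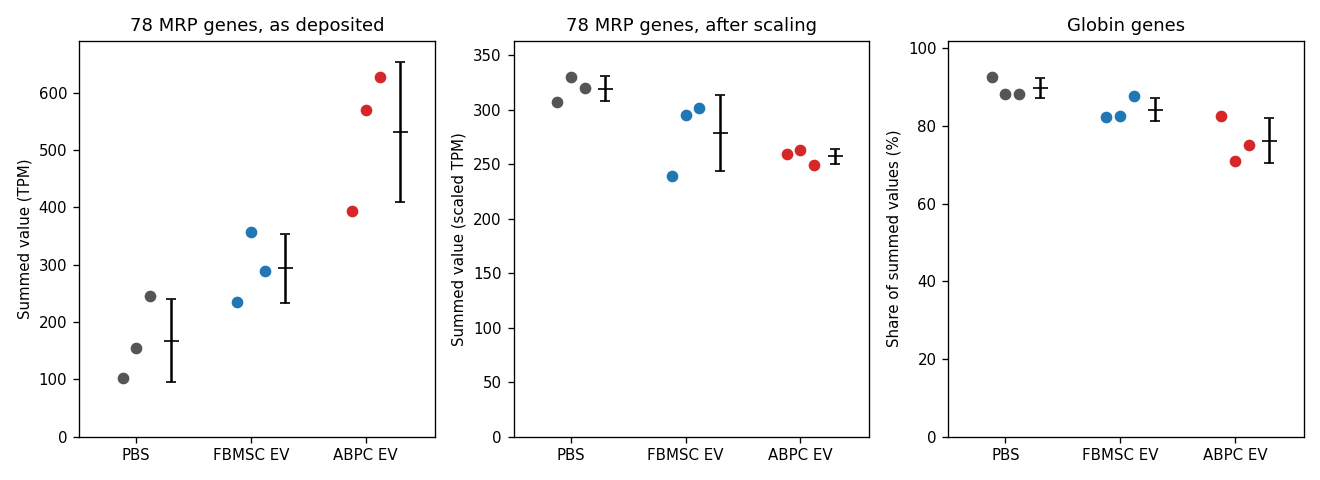
Summed value of the 78 mitochondrial ribosomal protein (MRP) genes per library as deposited (left) and after median-ratio scaling (middle), and the share of summed deposited values held by globin genes (right). Points are libraries 1, 2 and 3 of each group from left to right, and bars are the mean and SD of 3 libraries. The deposited sums are highest in the 3 ABPC EV libraries, the scaled sums are highest in the 3 PBS libraries, and the globin share is lowest on average in the ABPC EV group.

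The genes covered a wide range of levels, with an order that was alike in the groups. By mean deposited value over the 9 libraries, MRPL23 led at 15.4 TPM, followed by MRPL49 at 12.3, MRPL27 at 12.1, MRPL34 at 11.8 and MRPS16 at 10.6. MRPL23, which sits near the exit of the ribosome's peptide tunnel, had 6.503, 8.41 and 9.995 TPM in the PBS libraries, 8.92, 14.6 and 16.7 in the FBMSC EV libraries and 14.8, 30.1 and 28.0 in the ABPC EV libraries. Within each library MRPL23 exceeded MRPL49 and MRPL34, but its lead over MRPL27 was not constant. MRPL27 had 8.44, 8.87 and 11.2 TPM in the PBS libraries, above MRPL23 in each. The order among the others changed between libraries. In RefSeq's annotation of another assembly, the loci of MRPL49, MRPL34 and MRPS16 overlap FAU, DDA1 and DNAJC9. Reads of those overlaps could fall to either gene. At the other end of the tested genes were MRPL47 at 0.822, MRPS6 at 0.908, MRPL19 at 1.12, MRPL35 at 1.14 and MRPS17 at 1.33 TPM. Even so, MRPS6 had 33 to 198 reads per library, more than MRPL22 with 1 to 59, because its value is divided by a longer gene model. The reads behind 1 unit of value were 6.19 times the median of the 78 genes for MRPS6 and 3.66 times for MRPL53. The order of the genes by level was much alike in the groups, with a Spearman rho across the 74 tested genes of 0.94 between the ABPC EV and PBS means, as a description across genes that share gene models and libraries. The 10 genes of highest mean value held 30.2% to 40.6% of the summed value, the most of it in PBS 1.

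A gene entered the test where its value was at least 1 in at least 3 libraries, and 74 of the 78 did, among 10596 genes tested in all. The other four were MRPL1, MRPS22, MRPL55 and MRPL39, whose values ranged from 0.190 to 1.88, from 0.132 to 1.68, from 0.192 to 0.934 and from 0.0513 to 0.968 TPM. They were low but present, and each had reads in all 9 libraries. The count of genes at 1 TPM or above was 32, 50 and 66 of 78 in PBS 1, 2 and 3. It was 65, 72 and 71 in the FBMSC EV libraries and 76, 73 and 76 in the ABPC EV libraries, so a PBS library on its own would have kept fewer of them.

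The first comparison asked how blood after ABPC EVs differed from blood after PBS. As deposited, 73 of the 74 tested genes were higher in the ABPC EV group (limma, Benjamini-Hochberg adjusted p under 0.05), beside 90.9% of all genes tested. In 65 of the 74 the 2 groups did not overlap, beside 85.4% of all genes. The median log2 fold change of the 74 was 1.29, against 1.41 for all genes tested, on the log2(value + 1) scale, which understates the change of low genes. The share of these genes that passed was thus near that of the whole table and singles out nothing about them. The largest change was that of MRPL12, a large subunit stalk protein also reported to bind the mitochondrial RNA polymerase. It had 0.844, 2.30 and 3.01 TPM in the PBS libraries, 3.52, 6.78 and 6.39 in the FBMSC EV libraries and 8.02, 16.1 and 10.49 in the ABPC EV libraries. The 3 groups of MRPL12 values did not overlap, and the ABPC EV against PBS log2 fold change was 2.06 (SE 0.39, limma adjusted p = 0.000418). With the red cell genes taken out and the rest brought to a common total, 0 of the 74 passed by limma. Of the 74, 17 had an unadjusted p under 0.05, beside 4282 of the 10559 genes then tested. The median log2 fold change of the 74 was 0.54, against 0.73 for all genes. In that setting no gene of the table passed.

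The exception was MRPL27, a large subunit protein whose bacterial homologue lies at the peptidyl transferase centre. It had 8.44, 8.87 and 11.2 TPM in the PBS libraries, 11.2, 11.03 and 14.2 in the FBMSC EV libraries and 12.1, 15.4 and 16.4 in the ABPC EV libraries. The PBS and ABPC EV groups did not overlap, but the log2 fold change of 0.57 (SE 0.37) did not pass the limma test (adjusted p = 0.145). Its reads were nearly level, at 127, 141 and 139 in the PBS libraries, 133, 130 and 182 in the FBMSC EV libraries and 139, 120 and 141 in the ABPC EV libraries. Over the same libraries the reads of the 78 genes together ran from 2670 to 10210. In PBS 1, MRPL27 alone had 127 of those 2670 reads, and in ABPC EV 3 it had 141 of 10210. In RefSeq's annotation of another assembly the MRPL27 locus overlaps EME1, and the library kit is not stated to keep strand, so reads of that overlap could fall to either gene.

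After scaling, 0 of the 74 genes passed the test between the ABPC EV and PBS groups, and 0% of all genes did (limma). At an unadjusted p under 0.05 there were 9 genes, all lower in the ABPC EV group, against 1080 of the 10596 genes tested, of which 754 were lower. On recovered reads, limma-voom also called 0, with 7 at an unadjusted p under 0.05, beside 992 of 10595 genes. The median log2 fold change was -0.10, against 0.00 for all genes, and 25 of 74 lay above 0. Groups did not overlap for 12 genes that were lower in the ABPC EV group, beside 7.51% of all genes. They did not overlap for 1 gene that was higher, MRPL21, beside 6.45% of all genes. With upper-quartile scaling the median of the 74 moved to 0.01 and that of all genes to 0.11, a shift common to all genes. With limma-voom on reads the medians were -0.21 for the 74 and -0.01 for all genes, so the gap to all genes was -0.20, against -0.10 on the scaled values.

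MRPL27 lay lowest on the scaled values too. It had 25.6, 18.9 and 14.6 in the PBS libraries, 11.4, 9.14 and 14.8 in the FBMSC EV libraries and 7.98, 7.13 and 6.5 in the ABPC EV libraries. Every PBS library was above every ABPC EV library, with FBMSC EV values reaching into the PBS range. The log2 fold change was -1.30 (SE 0.25, unadjusted p = 0.000406, limma adjusted p = 0.119). Leaving out PBS 3 brought MRPL27 past the threshold, at -1.49 and an adjusted p of 0.0357 (limma), beside 172 of 10524 genes in the table. Leaving out PBS 1 gave -1.12 and an adjusted p of 0.377 (limma).

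MRPL40, a large subunit protein specific to mitochondria, had scaled values of 8.19, 6.08 and 8.75 in the PBS libraries, 4.04, 5.39 and 5.15 in the FBMSC EV libraries and 3.53, 4.10 and 3.88 in the ABPC EV libraries. The PBS libraries were the 3 highest, and neither EV group reached them. The ABPC EV against PBS log2 fold change was -0.83 (SE 0.18, limma adjusted p = 0.145). MRPL53, also specific to mitochondria, followed at -0.74 (SE 0.19, limma adjusted p = 0.202), with scaled values of 5.25, 3.70 and 3.26 in the PBS libraries and 1.97, 1.74 and 2.27 in the ABPC EV libraries. MRPS16, a small subunit protein with a bacterial homologue, stood at -0.67 (SE 0.20, limma adjusted p = 0.263), with 12.5, 10.7 and 13.7 in the PBS libraries and 8.48, 6.36 and 7.22 in the ABPC EV libraries. For both genes the groups did not overlap, and neither difference passed the test. Other genes without overlap on the low side were MRPL34, MRPL51, MRPL20, MRPL28, MRPS18A, MRPL32, MRPS28 and MRPS36. MRPS36, the gene outside the ribosome, had scaled values of 2.12, 2.38 and 1.98 in the PBS libraries and 1.56, 1.06 and 0.972 in the ABPC EV libraries.

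On the high side of the scaled ABPC EV against PBS comparison stood MRPL12 at 0.47 (SE 0.27), MRPL22 at 0.31 (SE 0.41), MRPL4 at 0.29 (SE 0.22) and MRPL36 at 0.26 (SE 0.31). These differences were of the size of their errors, and the groups of each gene overlapped. MRPL22 rested on 1 read in PBS 1 and on 18 and 24 reads in PBS 2 and 3. MRPL36, a very short large subunit protein with a bacterial homologue, had 5, 2 and 19 reads in the PBS libraries. MRPL21, the single gene without overlap on the high side, had scaled values of 2.29, 2.22 and 1.96 in the PBS libraries and 2.68, 2.95 and 2.53 in the ABPC EV libraries, a log2 fold change of 0.24 (SE 0.20). The plot of the 74 changes shows a long tail below 0 and a short one above it.

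**Figure D2:**
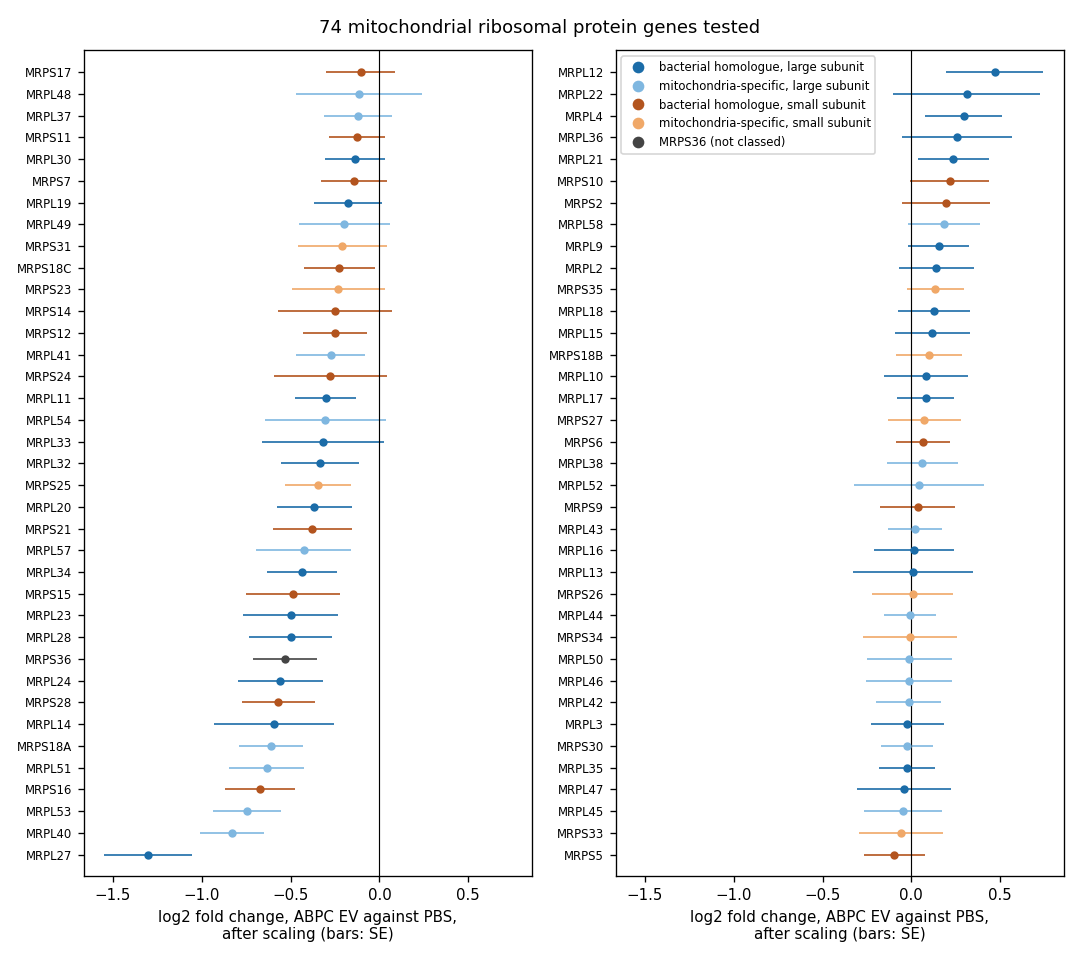
log2 fold change of each tested gene in the ABPC EV group against the PBS group after median-ratio scaling, with the standard error, sorted from the lowest (bottom left) to the highest (top right) and coloured by the protein's class. MRPL27 lies lowest at -1.30 and MRPL12 highest at 0.47, and none of the 74 passed the test.

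**Figure D3:**
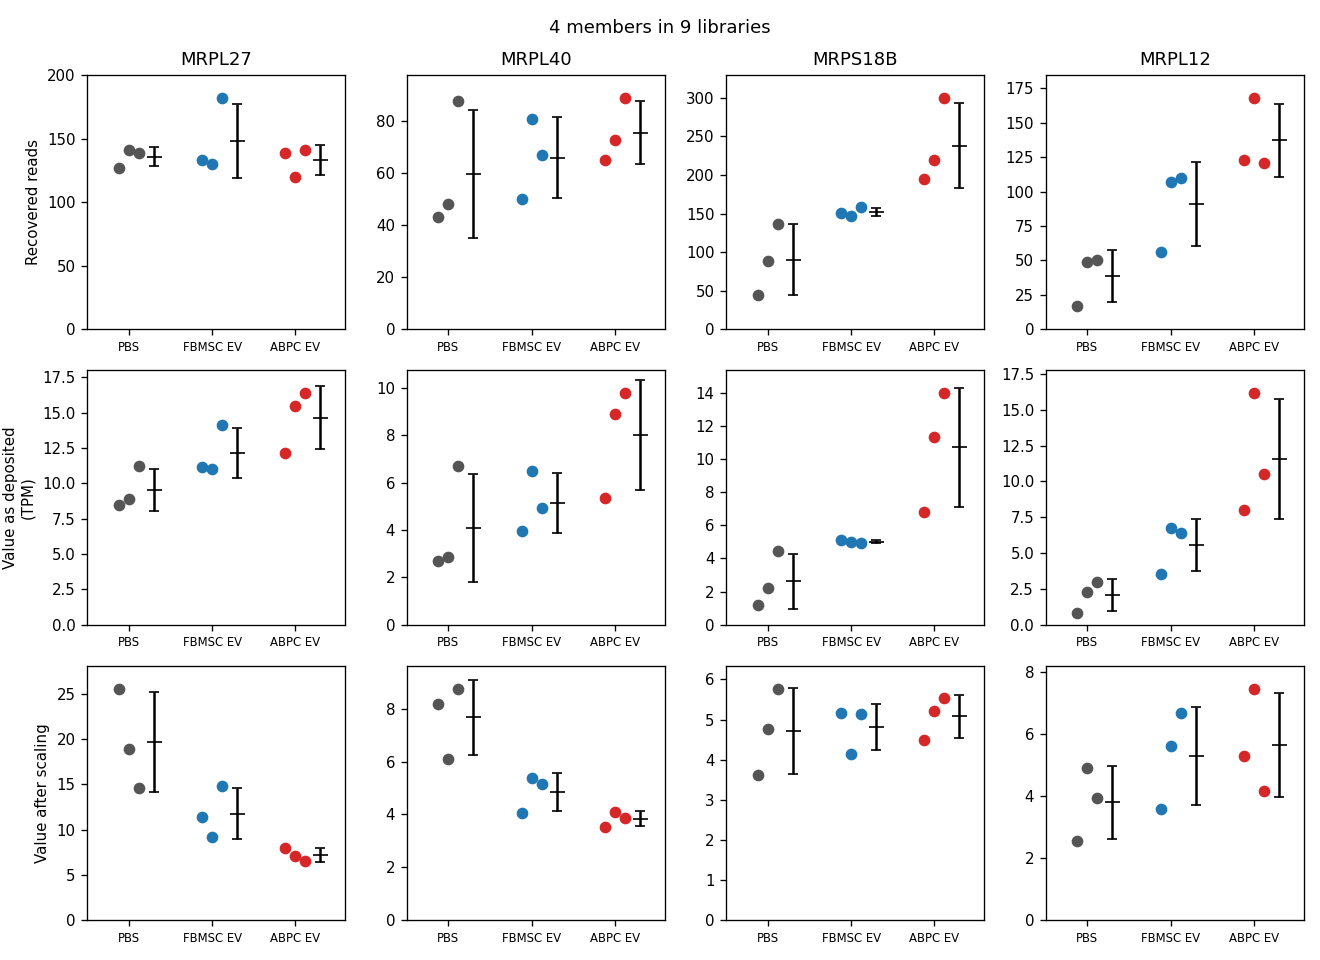
Recovered reads (top), deposited value TPM (middle) and scaled value (bottom) of MRPL27, MRPL40, MRPS18B and MRPL12 in each library. Points are libraries 1, 2 and 3 of each group and bars are the mean and SD of 3 libraries. MRPL27 reads are nearly level in 8 libraries and higher in FBMSC EV 3, while its scaled value is lowest in the ABPC EV group.

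By structural class, the scaled ABPC EV against PBS medians ran from -0.18 to -0.01, and the differences between classes were not tested. The median was -0.02 for the 28 tested large subunit proteins with a bacterial homologue, of which 13 lay above 0. It was -0.08 for the 20 specific to mitochondria, with 4 above 0. For the small subunit it was -0.18 for the 16 with a bacterial homologue, with 4 above 0, and -0.01 for the 9 specific to mitochondria, also with 4 above 0. None of the 4 classes had a gene past the test on the scaled values by limma. As deposited the same classes had 27 of 28, 20 of 20, 16 of 16 and 9 of 9 genes higher in the ABPC EV group, beside 90.9% of all genes.

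The ratio of the mean deposited value of the 51 large subunit genes to that of the 26 small subunit genes is unaffected by scaling. It was 1.35, 1.22 and 1.22 in the PBS libraries, 1.23, 1.22 and 1.28 in the FBMSC EV libraries and 1.16, 1.17 and 1.17 in the ABPC EV libraries. The ABPC EV libraries were the 3 lowest of the 9, and those of the PBS and FBMSC EV groups overlapped. This ratio weights genes of high value most. MRPL27 alone gave 8.87 of the 108.6 TPM of the large subunit in PBS 2 and 15.4 of 395.2 in ABPC EV 2. Medians of the gene changes by symbol did not go the same way, but symbols split the genes differently from this ratio. The MRPS symbols include MRPS30 and MRPS18A of the large subunit, and MRPS36. After scaling, the median ABPC EV against PBS change was -0.03 for the 46 tested MRPL symbols and -0.13 for the 28 MRPS symbols. The difference between subunits was not tested.

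The 3 paralogues of the bacterial protein S18 can be set side by side, since they go to different places in the ribosome. MRPS18C and MRPS18B are small subunit proteins and MRPS18A is in the large subunit. MRPS18A had deposited values of 2.94, 3.22 and 4.69 in the PBS libraries, 4.85, 6.95 and 5.95 in the FBMSC EV libraries and 6.64, 10.3 and 10.1 in the ABPC EV libraries. MRPS18B had 1.198, 2.24 and 4.42 in the PBS libraries, 5.09, 4.995 and 4.92 in the FBMSC EV libraries and 6.82, 11.3 and 14.0 in the ABPC EV libraries. MRPS18C had 1.90, 3.33 and 3.69 in the PBS libraries, 3.85, 5.46 and 4.45 in the FBMSC EV libraries and 8.61, 7.91 and 13.6 in the ABPC EV libraries. All 3 were higher in the ABPC EV than in the PBS group as deposited, with limma adjusted p-values of 0.00561, 0.000494 and 0.000869 for A, B and C. After scaling their log2 fold changes were -0.61 (SE 0.18), 0.10 (SE 0.19) and -0.23 (SE 0.20). Only for MRPS18A of the 3 did the scaled groups not overlap, and its limma adjusted p was 0.256.

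The second comparison set FBMSC EVs against PBS, with the same PBS libraries as the first. As deposited, 0 of the 74 genes passed the limma test, beside 0.255% of all genes tested, and 19 had an unadjusted p under 0.05, all higher after FBMSC EVs, beside 4637 of the 10596 genes. In 27 of the 74 the groups were apart, beside 50.9% of all genes. The median log2 fold change was 0.57, against 0.70 for all genes tested. The count was sensitive to a single animal, and so was that of all genes. Without PBS 3, 27 of these genes passed, beside 4562 of 10524 in the table, and without ABPC EV 2, whose spread enters the fit, 1 did, beside 702 of 9979.

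After scaling, 0 of the 74 genes passed between the FBMSC EV and PBS groups, beside 0% of all genes (limma). There were 6 with an unadjusted p under 0.05, all lower, beside 512 of the 10596 genes tested, 275 of them lower. On reads, limma-voom gave 0 calls and 4 genes at an unadjusted p under 0.05, beside 438 of 10595 in the table. The median log2 fold change on the scaled values was -0.12, against 0.02 for all genes. Groups did not overlap for 6 lower genes, beside 4.71% of all genes, and for 0 higher genes, beside 4.96%. The 6 were MRPL28, MRPS18C, MRPL40, MRPL57, MRPS15 and MRPS11. The lowest change was that of MRPL54, at -0.90 (SE 0.34), which had 10, 29 and 7 reads in the FBMSC EV libraries and 7, 22 and 37 in the PBS libraries, with overlap. MRPL27 followed at -0.69 (SE 0.25), MRPL57 at -0.62 (SE 0.27) and MRPL40 at -0.56 (SE 0.18). The highest were MRPS23 at 0.52 (SE 0.26), MRPL36 at 0.48 (SE 0.31), MRPL12 at 0.39 (SE 0.27) and MRPL22 at 0.38 (SE 0.41), and none of these passed (lowest limma adjusted p of the 74, 0.927). FBMSC EV 1 held the lowest scaled value of the 9 libraries for 26 of the 78 genes, against 1 to 17 in each other library. Its scaled sum of neutrophil markers, 17 of 19 listed and none at 0 in every library, was also the highest of the 9, at 4207. The neutrophil sum ran from 807.2 to 3105 in the PBS group, was 894.8 and 1324 in FBMSC EV 2 and 3 and ran from 607.8 to 1811 in the ABPC EV group. The monocyte marker sum of FBMSC EV 1, over 9 of 10 listed, was the highest too, at 1249 against 334.4 to 607.8 elsewhere. The T cell and B cell marker sums of FBMSC EV 1, at 131.4 and 81.4, were the lowest of the 9, the latter close to 84.4 in ABPC EV 3. Its natural killer cell marker sum, at 265.7, lay within the range of the other libraries, 133.5 to 657.6. Its platelet marker sum, at 274.3, was below only that of ABPC EV 2, at 462.2. The part of these cell types in the result was not tested.

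The third comparison set the EV groups against each other. As deposited, 0 of the 74 genes passed between ABPC EVs and FBMSC EVs (limma), beside 0.585% of all genes, and 38 had an unadjusted p under 0.05, all higher after ABPC EVs, beside 5120 of the 10596 genes. In 40 of the 74 the groups were apart, beside 50.5% of all genes, and the median log2 fold change was 0.73, against 0.71 for all genes tested. Without ABPC EV 1, 34 genes passed, beside 4610 of 10062 in the table. Without PBS 3, 19 did, beside 2702 of 10524, and without FBMSC EV 2, 2 did, beside 415 of 10420. After scaling 0 passed, beside 0% of all genes (limma), with 3 at an unadjusted p under 0.05 by limma and by limma-voom on reads, beside 568 and 660 of all genes. The scaled median was -0.005, against -0.02 for all genes, with 36 of 74 above 0.

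Groups did not overlap on the scaled values for 3 genes higher after ABPC EVs, MRPL4, MRPS2 and MRPS6, beside 4.23% of all genes. They did not overlap for 6 lower genes, MRPL27, MRPL41, MRPS18A, MRPS23, MRPL53 and MRPL24, beside 6.8% of all genes. MRPS23, a small subunit protein specific to mitochondria, was lowest at -0.75 (SE 0.26, limma adjusted p = 0.900). Its scaled values were 2.48, 2.28 and 4.87 in the PBS libraries, 4.04, 6.59 and 4.15 in the FBMSC EV libraries and 3.10, 2.14 and 2.23 in the ABPC EV libraries. The FBMSC EV libraries of MRPS23 were thus all above the ABPC EV libraries, while PBS 3 exceeded FBMSC EV 1 and 3. MRPL4, a large subunit protein with a bacterial homologue, had 3.24, 3.18 and 3.39 in the ABPC EV libraries, 1.62, 2.51 and 2.62 in the FBMSC EV libraries and 1.76, 2.28 and 3.67 in the PBS libraries. Its ABPC EV against FBMSC EV log2 fold change was 0.41 (SE 0.22, limma adjusted p = 0.934). MRPL27 was again among the lowest, at -0.62 (SE 0.25), with MRPL33 at -0.60 (SE 0.34) and MRPL24 at -0.55 (SE 0.24), and MRPL54 stood highest at 0.59 (SE 0.34). MRPS2 followed MRPL4 at 0.35 (SE 0.25) and MRPL2 at 0.33 (SE 0.21), and neither passed (limma adjusted p = 0.934 for both).

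Proteins of the mitochondrial ribosome that carry other names gave a similar picture. The 6 examined were DAP3, PTCD3, CHCHD1, AURKAIP1, GADD45GIP1 and OXA1L, the last of which inserts new chains into the inner membrane rather than forming part of a subunit. As deposited, 5 of the 6 were higher in the ABPC EV than in the PBS group, beside 90.9% of all genes. GADD45GIP1, a large subunit protein, missed the threshold (limma adjusted p = 0.0566). After scaling the median was -0.20, from -0.81 (SE 0.27) for GADD45GIP1 to 0.44 (SE 0.25) for PTCD3, a small subunit protein. GADD45GIP1 had scaled values of 4.90, 6.14 and 5.81 in the PBS libraries, 1.92, 3.29 and 5.55 in the FBMSC EV libraries and 2.15, 3.23 and 2.98 in the ABPC EV libraries. Its PBS and ABPC EV groups did not overlap, and the limma adjusted p was 0.325.

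Genes that act around this ribosome had changes near those of the table as a whole. As deposited, 25 of 26 tested assembly factors, 12 of 12 translation factors, 20 of 20 mitochondrial aminoacyl-tRNA synthetases and amidotransferase subunits, and 18 of 18 genes of mitochondrial transcription and RNA processing were higher in the ABPC EV than in the PBS group, beside 90.9% of all genes. After scaling their medians were 0.08, 0.03, 0.08 and 0.04, and none passed by limma. At an unadjusted p under 0.05 there were 2, 0, 0 and 1 genes. C1QBP, a matrix protein needed for mitochondrial translation, was the lowest of the assembly list at -1.31 (SE 0.29, limma adjusted p = 0.1504), close to MRPL27. MTERF2, of the mitochondrial transcription termination factor family, stood at 0.80 (SE 0.23, limma adjusted p = 0.255).

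The 11 mitochondrially encoded messages measured, which this ribosome translates, summed to 49.0 to 130 TPM in the PBS libraries, 77.5 to 137.2 in the FBMSC EV libraries and 126.9 to 250.3 in the ABPC EV libraries. In every library their sum of deposited values was below that of the 78 ribosomal protein genes. How reads that map to several places were handled is not stated, so these sums do not rank the sets by RNA amount. As deposited, 5 of the 11 passed by limma as higher in the ABPC EV than in the PBS group, beside 90.9% of all genes. Between FBMSC EVs and PBS 1 passed as higher, beside 27 of all 10596. Between ABPC EVs and FBMSC EVs 1 passed as lower, beside 6 of all 10596. After scaling, the ABPC EV against PBS median of the 11 messages was -0.53, with 1 of 11 at an unadjusted p under 0.05 and 0 called by limma. Their changes ran from -1.24 to 0.48. Between FBMSC EVs and PBS they ran from -2.37 (COX3, SE 0.80) to 1.68 (ATP6, SE 0.52), with 0 called by limma.

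The genes of the cytosolic ribosome lay further below 0 than those of the mitochondrial one on the scaled values. Of 80 cytosolic ribosomal protein genes tested, 6 lay above 0 and the ABPC EV against PBS median was -0.72, against -0.10 for the mitochondrial set and 0.00 for all genes. Of the 80, 31 were lower without overlap, beside 7.51% of all genes. At an unadjusted p under 0.05 there were 32, all lower, beside 754 lower of the 10596 genes tested, and 0 were called by limma. As deposited, 56 of the 80 were higher in the ABPC EV than in the PBS group by limma, beside 90.9% of all genes. The deposited medians were 1.25 for the cytosolic set, 1.29 for the mitochondrial set and 1.41 for all genes. Scaling divides all genes of a library by 1 factor. The gap between the sets therefore differs between the scales only through the 1 added before the log2, which understates the change of low genes. The gap between both sets was not tested. The 37 red cell genes had a median of -1.44 on the same scale, and their summed scaled values ran from 1.16e+06 to 2.82e+06 in the PBS libraries, 6.89e+05 to 9.20e+05 in the FBMSC EV libraries and 3.01e+05 to 5.45e+05 in the ABPC EV libraries. Of 42 markers listed, 37 were in the table, and none was at 0 in every library. MRPL27, at -1.30, lay nearer to the median of the red cell genes than to that of the other mitochondrial ribosomal protein genes, and the part of red cell RNA in its values was not tested.

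**Figure D4:**
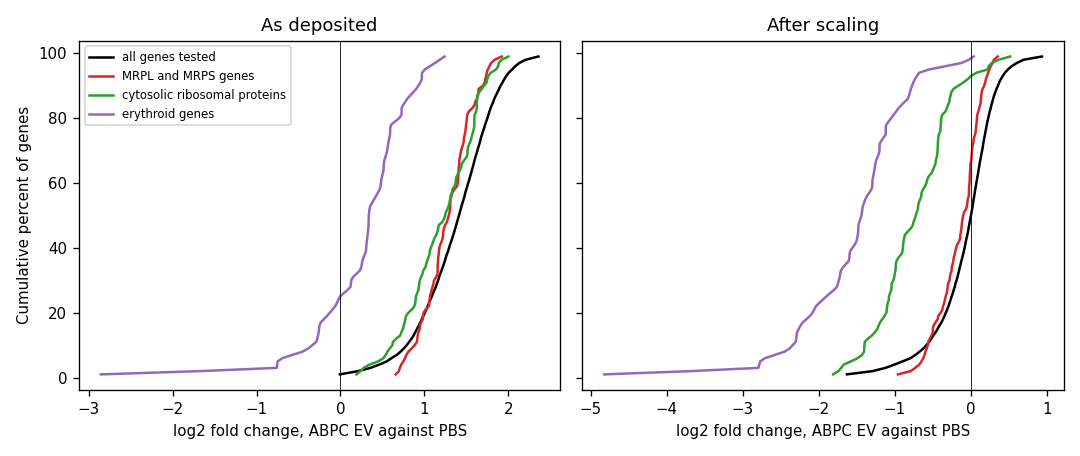
Cumulative percent of genes by log2 fold change in the ABPC EV group against the PBS group, as deposited (left) and after median-ratio scaling (right), for all 10596 genes tested, the 74 MRPL and MRPS genes, 80 cytosolic ribosomal protein genes and 37 red cell genes. The MRPL and MRPS curve runs near that of all genes on both scales, with medians of 1.29 and -0.10. The cytosolic set has medians of 1.25 as deposited and -0.72 after scaling.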

How the data were processed

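Whole blood RNA from 9 macaques was sequenced as paired 150-base reads from NEBNext Ultra RNA libraries, per the labels' protocols. The build was Mmul_10, per the submitters' processing notes. No aligner or counter is named in those notes. The authors deposited 1 table of log2 values for 24371 genes, offset by 0.5 before the log2. Turned back, values have the form of TPM, with the same total in every library and adjusted for gene length. Whole reads were recovered from value steps for 21550 of 21551 genes (99.995%, within 0.001 reads).

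Tests used limma 3.58.1 in R 4.3.3 on log2(value + 1), with all 3 groups in 1 fit, empirical Bayes variances, Benjamini-Hochberg adjustment over the 10596 genes tested, and a threshold of 0.05. This was done as deposited and after median-ratio scaling. Code was tested on simulated data. Alternatives covered pseudocount, filter, groups fitted, replicate numbers, left-out libraries, removal of red cell genes, upper-quartile scaling and limma-voom on reads. The design foresaw a count test only if the file held counts. The file holds log2 values, so limma gave the main result.

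The genes and all lists were chosen with earlier results of these data known. Named are the 5 highest and lowest by level, the 4 highest and lowest changes per comparison, genes without overlap, the S18 paralogues, genes below the filter, and the extreme gene of other lists. MRPL21 and genes named for not overlapping were chosen after their values were seen. Of the 78 genes, 69 matched an Ensembl identifier and 77 a RefSeq symbol. In RefSeq's assembly, 33 of the 77 overlap another gene. Mitochondrial ribosomal protein genes have processed pseudogenes, and how reads that map to several places were handled is not stated in the labels.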

Additional observations from a re-analysis of the deposited data

How the results depend on the processing

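Alternatives were run on the 12 counts and medians, those on red cell genes as deposited and those on scaling and reads after scaling. Taking out the red cell genes brought the 73 genes higher after ABPC EVs than after PBS, as deposited, to 0. The count of all genes passing went from 9639 of 10596 to 0 of 10559. Fitting only the 2 groups compared gave 3 genes higher after FBMSC EVs than after PBS (1063 of all 10596), where all groups gave 0. Testing every gene, with no filter on low values, moved the deposited median of the members relative to all genes from -0.12 to 0.756 (ABPC EVs against PBS), from -0.13 to 0.375 (FBMSC EVs against PBS) and from 0.01 to 0.421 (ABPC EVs against FBMSC EVs), since genes near 0 then enter the median of all genes. With the replicate numbers as a block, 30 genes passed as deposited between ABPC EVs and FBMSC EVs (3406 of all 10596), where none did without it, and no other count moved by over 1.5 times. On the scaled values, deviations of same-numbered libraries correlated from -0.248 to 0.282 with mixed signs. Scaling takes out the factor of each library, so these correlations cannot show whether the numbers matter for the deposited values. That was not tested.

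Leaving out 1 library at a time, the deposited counts ranged from 59 to 73 (ABPC EVs against PBS), from 0 to 27 (FBMSC EVs against PBS) and from 0 to 34 (ABPC EVs against FBMSC EVs). The counts of all genes moved too. The 59 came without PBS 1 (8740 of all 10581), the 27 without PBS 3 (4562 of all 10524) and the 34 without ABPC EV 1 (4610 of all 10062). The scaled counts ranged from 0 to 1 (ABPC EVs against PBS), the 1 being MRPL27 without PBS 3 (172 of all 10524), and stayed at 0 in the other comparisons. The relative medians ranged from -0.194 to -0.057, from -0.155 to -0.025 and from -0.119 to 0.065 as deposited, and from -0.182 to -0.021, from -0.177 to -0.03 and from -0.106 to 0.065 after scaling. The negative end in ABPC EVs against FBMSC EVs came without FBMSC EV 1. The other alternatives left each count and relative median within 1.5 times or 1 SD of its value. Depth limits the low genes, above all in PBS 1.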
